A study of Sus scrofa with 18 samples.

Results

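Imprinted genes that control growth were described in the developing brain of the pig. The members were PEG3, PEG10, MEST, DLK1, PLAGL1, CDKN1C, NNAT, SGCE and GRB10, and a member was taken from the gene-wise count table where its gene name equalled one of these symbols. Of the 9 symbols, 8 were found among the 31908 genes of the table, and NNAT was not found by name. A gene without a symbol, ENSSSCG00000007336, lies at the position of NNAT and is given separately below as the NNAT-locus gene.

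The 18 libraries came from whole brains of untreated fetuses of Landrace x Large White gilts that were bred to the LR-M6 line by artificial insemination. Each of the 6 groups held 3 fetuses of a single sex (female or male) at gestation day (GD) 45, 60 or 90, and the study asked how the brain transcriptome changed before, during and after rapid brain growth and whether it differed between the sexes. In each group the fetuses came from litters of different size, and at each day a female and a male shared each litter size. Litter sizes were 8, 16 and 17 at GD45, 8, 13 and 15 at GD60, and 10, 11 and 18 at GD90. The labels do not name the dam, so the pairs that share a day and a litter size are treated here as littermates without proof.

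In imprinted genes, 1 of the parental copies is silenced by marks set in the germ line, so that RNA comes mainly from the maternal or the paternal copy. In mammals, several paternally expressed genes of this kind favour fetal growth, and several maternally expressed genes restrain it. Many of them are expressed in progenitor cells and neurons of the fetal brain. Gene counts do not tell the parental copies apart, so every value below is the sum of both.

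Depth was alike in all libraries, with 15118843 to 19729783 counts per library in the gene table. The tissue label was checked with marker genes. The summed level of 5 neuron markers was 5734 to 9730 CPM (read counts as a proportion of the library's total, scaled to a common library size) in every group. That of 4 radial glia markers was 1052 to 1667 CPM at GD45 and 423.9 to 573.8 CPM at GD90, that of 5 astrocyte markers was 219.8 to 375.0 CPM and 1614 to 2064 CPM, and that of 7 oligodendrocyte-lineage markers was 131.4 to 207.6 CPM at GD45 and 2079 to 3410 CPM at GD90. In bulk tissue, fewer cells of a type and less RNA per cell cannot be told apart. Of 5 pituitary markers in the table, 3 stayed under 1 CPM in every library, but their sum exceeded 10 CPM in 3 libraries, namely female GD60 replicate 15 (63.3 CPM), female GD45 replicate 13 (28.3 CPM) and male GD45 replicate 17 (12.4 CPM). The libraries also differed in how evenly transcripts were covered. This was expressed as a coverage index, the median over 1457 genes of the log2 ratio of counts on upstream exons to counts on the last exon, centred for each gene. The index ranged from -1.04 in male GD45 replicate 17 to 0.54 in male GD90 replicate 10. Male GD45 replicate 17 stood apart on this scale, since the next lowest library had an index of -0.48. Results that rest on it are given with and without it.

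CPM values were scaled by the trimmed mean of M values (TMM). Differences between groups are log2 fold changes with the standard error (SE) of edgeR's quasi-likelihood fit to all 18 libraries, and a gene was called where the Benjamini-Hochberg adjusted p over all genes tested was under 0.05. All 8 named members and the NNAT-locus gene passed the filter on low counts and were among the 16325 genes tested.

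Every member that was called between gestation days was lower at the later day, and none was called higher. DLK1 was the single named member of the 8 called from GD45 to GD60, in females and in males. In these comparisons 2.88% of all genes tested were lower and 4.34% higher in females, and 2.53% were lower and 3.08% higher in males. PLAGL1 and GRB10 were lower in females, and GRB10 in males, from GD60 to GD90. Here 13.4% of all genes were lower and 13.7% higher in females, and 16.0% were lower and 18.5% higher in males. Over the whole interval from GD45 to GD90, MEST, DLK1, PLAGL1 and GRB10 were lower in females, and DLK1 and GRB10 were lower in males. Over this interval 18.9% of all genes were lower and 20.0% higher in females, and 24.3% were lower and 23.4% higher in males. The male count of 2 of 8 over this interval is close to the share of all genes that were lower, whereas the female count of 4 of 8 is above it, and with 8 genes nothing further is read from either. Levels of the progenitor and glial markers given above moved between the same days, and their part in these results was not tested. The 3 day comparisons of a sex share libraries and are not independent of each other. The plot of levels by library shows each value.

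**Figure D1:**
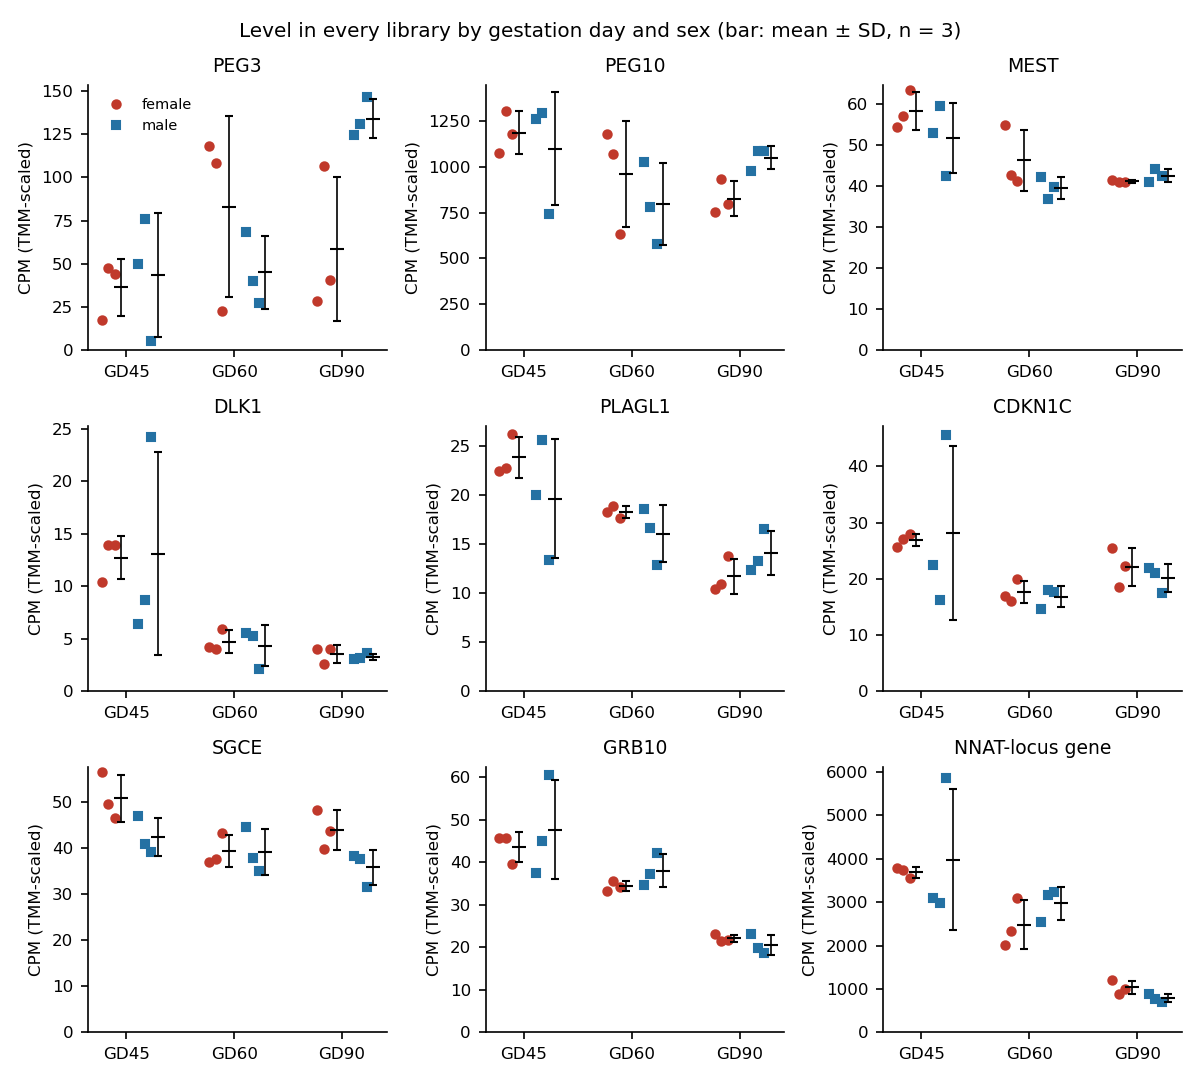
Level of the 8 named members and the NNAT-locus gene in each of the 18 libraries (y axis, TMM-scaled CPM from 0) by gestation day (x axis), with females as circles, males as squares, and bars for the mean ± SD of 3 libraries. GRB10 was between 18.6 and 23.1 CPM at GD90 and at or above 33.3 CPM at GD45 and GD60, whereas PEG3 ranged from 5.36 to 146.5 CPM.

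GRB10 encodes an adaptor protein that binds the insulin and IGF1 receptors and restrains their signal, and in the mouse brain it is expressed from the paternal copy in neurons. The gene (ENSSSCG00000015631) lies at chr9:136580362-136742532 of Sscrofa11.1 on the minus strand. Its level in females was 39.5, 45.6 and 45.8 CPM at GD45, 33.3, 34.1 and 35.6 CPM at GD60, and 21.5, 21.8 and 23.1 CPM at GD90. In males it was 37.5, 45.1 and 60.4 CPM at GD45, 34.6, 37.2 and 42.2 CPM at GD60, and 18.6, 19.8 and 23.1 CPM at GD90. All 6 libraries of GD90 were below all 12 earlier libraries, and the male groups of GD45 and GD60 overlapped. GRB10 fell from GD60 to GD90 by 0.63 (SE 0.15, adjusted p = 0.00525) on the log2 scale in females and by 0.89 (SE 0.15, adjusted p = 0.00037) in males. Its change from GD45 to GD60 was -0.35 (SE 0.15, adjusted p = 0.188) in females and -0.33 (SE 0.15, adjusted p = 0.26) in males and was not called. Without male GD45 replicate 17, the female change of -0.36 had an adjusted p of 0.0433, and the male change was -0.14 (SE 0.13, adjusted p = 0.531).

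Other genes of the insulin and IGF receptor pathway did not share a single direction. Of 20 listed genes 17 were tested. From GD60 to GD90 there was 1 higher and 1 lower in females and 2 higher and 1 lower in males. Over all genes tested 13.7% were higher and 13.4% lower in females, and 18.5% and 16.0% in males. The median log2 change of the 17 genes was -0.26 in females and 0.23 in males, beside -0.02 and 0.01 over all genes tested. A gene called in both sexes was PIK3R1, a regulatory subunit of phosphoinositide 3-kinase, which rose by 0.78 (SE 0.13) in females and 0.91 (SE 0.13) in males. In the list 1 gene was lower from GD45 to GD60 in each sex and none was higher, beside 2.88% and 2.53% of all genes lower. From GD45 to GD90 there were 4 higher and 2 lower in females and 6 higher and 2 lower in males. Over all genes 20.0% were higher and 18.9% lower in females, and 23.4% and 24.3% in males. GRB14, a relative of GRB10 that also binds the insulin receptor, rose from GD45 to GD90 by 0.71 (SE 0.19, adjusted p = 0.00566) in females and 0.90 (SE 0.19, adjusted p = 0.000964) in males, while GRB10 fell over the same interval by 0.98 (SE 0.15) and 1.21 (SE 0.15).

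NNAT encodes neuronatin, a small membrane protein of developing neurons that is expressed from the paternal copy and lies within an intron of BLCAP. The NNAT-locus gene covers chr17:40627101-40629515 on the plus strand. RefSeq places NNAT at chr17:40625990-40629523 on the same build, and the exon at chr17:40628210-40628290 is the same in both annotations. This gene had the highest level of those described. In females it was at 3548, 3734 and 3777 CPM at GD45, 2015, 2323 and 3099 CPM at GD60, and 891.6, 1006 and 1207 CPM at GD90. In males it was at 2989, 3084 and 5861 CPM at GD45, 2538, 3160 and 3223 CPM at GD60, and 710.5, 763.5 and 888.5 CPM at GD90. The GD90 libraries lay below all others in both sexes, and the male groups of GD45 and GD60 overlapped. The log2 change from GD60 to GD90 was -1.26 (SE 0.23, adjusted p = 0.00062) in females, which is 2.39-fold lower, and -1.92 (SE 0.23, adjusted p = 1.6e-05) in males, which is 3.78-fold lower. In the earlier interval, GD45 to GD60, the change was -0.57 (SE 0.23, adjusted p = 0.146) in females and -0.42 (SE 0.22, adjusted p = 0.35) in males. Without male GD45 replicate 17 these values were -0.59 (SE 0.15, adjusted p = 0.0146) and -0.05 (SE 0.17, adjusted p = 0.896).

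Almost all exon counts of the NNAT-locus gene fell on its last exon, with 262992 counts over 18 libraries at chr17:40628519-40629515. The middle exon of 81 bases held 7533. As a share of these 2 exons together, the middle exon took 1.17% to 3.73% over the libraries. The exon counts together were fewer than the gene counts (10826 to 75410 per library), and exons annotated within the last one held 0. How reads on more than 1 exon were counted is not given, so the share describes assigned counts only. RefSeq annotates BLCAP across the position of this gene on the opposite strand. Whether counting used strand is not given in the sources used here, so reads of a gene on the other strand cannot be told apart. Within gestation days the level moved against the coverage index, with Pearson's r of -0.974, -0.864 and -0.936 over the 6 libraries of GD45, GD60 and GD90. With the index as a covariate, the change from GD60 to GD90 was -1.35 (SE 0.10) in females and -1.50 (SE 0.11) in males.

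DLK1 encodes a membrane protein related to the NOTCH ligands that keeps precursor cells from differentiating and is expressed from the paternal copy. The gene (ENSSSCG00000035805) lies at chr7:121565854-121576654 on the plus strand. It was at a low level, with 33 to 311 counts per library. Females had 10.4, 13.9 and 13.9 CPM at GD45, 4.02, 4.25 and 5.96 CPM at GD60, and 2.59, 4.04 and 4.07 CPM at GD90. Males had 6.43, 8.71 and 24.2 CPM at GD45, 2.11, 5.32 and 5.60 CPM at GD60, and 3.05, 3.2 and 3.61 CPM at GD90. The GD45 libraries were above the GD60 and GD90 libraries of the same sex, and GD60 and GD90 overlapped.

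DLK1 fell from GD45 to GD60 by 1.42 (SE 0.41, adjusted p = 0.0472) in females and by 1.58 (SE 0.42, adjusted p = 0.0341) in males. The female call was lost when any of the 6 libraries of the comparison was left out, with log2 changes from -1.62 to -1.31. Without male GD45 replicate 17, which had the highest level, the male change was -0.81 (SE 0.32, adjusted p = 0.127), and the call was also lost without male GD60 replicate 6 (-1.75, adjusted p = 0.0742) or 16 (-1.25, adjusted p = 0.144). With only the libraries of these groups in the fit the change was the same (-1.58, adjusted p = 0.354), and 0 of 15283 genes were called there, although 1692 had an unadjusted p under 0.05 in edgeR's quasi-likelihood test. Between GD45 and GD90 the change was -1.83 (SE 0.42, adjusted p = 0.00249) in females and -1.98 (SE 0.43, adjusted p = 0.0012) in males, and the male value without that library was -1.22 (adjusted p = 0.0063). The change from GD60 to GD90 was -0.41 (SE 0.43) in each sex and was not called.

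DLK1 is also expressed in the pituitary. The library with the highest pituitary marker sum at GD60 held the highest DLK1 level of that day (5.96 CPM), and male GD45 replicate 17 held the highest of all. Female GD45 replicate 13, with a pituitary sum of 28.3 CPM, had 13.9 CPM of DLK1, the same as female GD45 replicate 18 with a sum of 1.15 CPM. The part of pituitary tissue in these levels was not tested. Without the 3 libraries over 10 CPM for pituitary markers, the change from GD45 to GD60 was -1.55 (SE 0.36, adjusted p = 0.00873) in females and -0.81 (SE 0.32, adjusted p = 0.112) in males. Between GD45 and GD90 it was -1.76 (adjusted p = 0.000287) in females and -1.22 (adjusted p = 0.00616) in males.

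Of 10 NOTCH receptors, ligands and targets, all tested, 1 was higher and 1 lower from GD45 to GD60 in each sex. Over all genes 4.34% were higher and 2.88% lower in females, and 3.08% and 2.53% in males. In the next interval, GD60 to GD90, 3 were lower in females, 2 were lower in males and none was higher. Over all genes 13.4% were lower in females and 16.0% in males. The medians of the list were -0.20 and -0.24, beside -0.02 and 0.01 over all genes. DLL1, a NOTCH ligand of neurogenic cells, fell by 0.97 (SE 0.17) in females and 0.99 (SE 0.17) in males over that interval. Over both intervals 6 were lower and 1 higher in females, and 5 were lower and none higher in males. Over all genes 18.9% were lower and 20.0% higher in females, and 24.3% and 23.4% in males. With 10 genes nothing further is read from these counts. DLK2, the closest relative of DLK1, went the other way in females and rose from GD60 to GD90 by 0.55 (SE 0.19, adjusted p = 0.0418), with a male value of -0.22 (SE 0.19, adjusted p = 0.393).

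PLAGL1 encodes a zinc finger transcription factor that slows cell division and is expressed from the paternal copy. The gene (ENSSSCG00000004127) lies at chr1:21304042-21370614 on the plus strand. Levels in females stepped down at each day, with 22.5, 22.8 and 26.3 CPM at GD45, 17.7, 18.3 and 18.9 CPM at GD60, and 10.4, 11.0 and 13.8 CPM at GD90, and the 3 groups did not overlap. In males the levels were 13.4, 20.0 and 25.6 CPM, then 12.9, 16.7 and 18.6 CPM, then 12.4, 13.3 and 16.6 CPM, and all 3 groups overlapped. In females PLAGL1 fell from GD60 to GD90 by 0.64 (SE 0.21, adjusted p = 0.0287) and from GD45 to GD90 by 1.03 (SE 0.21, adjusted p = 0.000835). In males the change from GD45 to GD90 was -0.48 (SE 0.21, adjusted p = 0.0634), and without male GD45 replicate 17 it was -0.71 (SE 0.18, adjusted p = 0.00447). The sexes were not shown to differ, since the interaction from GD60 to GD90 was 0.45 (SE 0.29, adjusted p = 0.362). The female call from GD60 to GD90 was lost without female GD60 replicate 3 or 5 or female GD90 replicate 2 or 7, with log2 changes from -0.64 to -0.56. PLAGL2, a relative of PLAGL1, fell from GD60 to GD90 by 1.20 (SE 0.21) in females and 0.63 (SE 0.20) in males, from a mean of 8.67 to 4.58 CPM.

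MEST encodes a protein of the alpha/beta hydrolase family that is expressed from the paternal copy and promotes fetal growth. The gene (ENSSSCG00000016554) lies at chr18:18327536-18345843 on the minus strand, and its exons overlap those of COPG2, so reads in the overlap are uncertain. Females had 54.4, 57.0 and 63.4 CPM at GD45, 41.3, 42.6 and 54.8 CPM at GD60, and 40.9, 41.0 and 41.5 CPM at GD90. Males had 42.5, 52.9 and 59.4 CPM, then 36.8, 39.8 and 42.1 CPM, then 41.1, 42.5 and 44.1 CPM. The 6 libraries of GD90 were close together, with a coefficient of variation of 3.02%, against 13.0% at GD45 and 14.4% at GD60. MEST was lower at GD90 than at GD45 in females (-0.50, SE 0.13, adjusted p = 0.00665), while the male change was -0.28 (SE 0.13, adjusted p = 0.0954). Without male GD45 replicate 17, the male change was -0.41 (SE 0.13, adjusted p = 0.0139). The changes from GD45 to GD60 were -0.33 (SE 0.13, adjusted p = 0.152) in females and -0.38 (SE 0.13, adjusted p = 0.115) in males, and the male value without that library was -0.52 (SE 0.13, adjusted p = 0.0163). With the coverage index as a covariate, both were -0.43, and the adjusted p was 0.0113 in females and 0.0102 in males.

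CDKN1C encodes p57, an inhibitor of cyclin-dependent kinases that stops the cell cycle when progenitors leave division, and it is expressed from the maternal copy. The gene (ENSSSCG00000040461) lies at chr2:2019490-2021853 on the minus strand. In females the lowest levels were at GD60, with 25.7, 27.1 and 27.9 CPM at GD45, 16.1, 16.9 and 19.9 CPM at GD60, and 18.6, 22.2 and 25.5 CPM at GD90. In males the levels were 16.2, 22.5 and 45.6 CPM, then 14.7, 17.7 and 18.1 CPM, then 17.4, 21.1 and 22 CPM. CDKN1C was called in no day comparison of the fit to all libraries. The change from GD45 to GD60 was -0.61 (SE 0.26, adjusted p = 0.187) in females and -0.74 (SE 0.26, adjusted p = 0.127) in males. The male value rested on replicate 17 at GD45, and it was -0.22 (SE 0.17) without it. In the fit without it the female change was -0.62 with a smaller SE (0.15, adjusted p = 0.0124). Between GD45 and GD90 the male change was -0.47 (SE 0.26) with that library and 0.04 (SE 0.17) without it. Some other alternatives called CDKN1C. From GD45 to GD60 it was called with sums by litter. In females it was also called there with only the groups compared and without the 3 libraries with pituitary markers. Without male GD45 replicate 14 it was called in males from GD45 to GD60 and to GD90. With the coverage index as a covariate it was called in males from GD60 to GD90. The more counted of the 2 annotated transcripts of CDKN1C took 53.9% to 78.7% of the counts assigned to either, with group medians of 58.9% at GD45, 67.6% at GD60 and 73.3% at GD90 in females and 61.4%, 65.7% and 73.0% in males. These shares rest on 105 to 323 counts per library.

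Most cyclins and kinases of the cycle that p57 restrains were lower at GD90 than at GD45. Of 17 listed genes 15 were tested. From GD45 to GD60 there were 9 lower in females and 8 in males and none higher, beside 2.88% and 2.53% of all genes lower. The medians were -0.98 and -0.84, beside 0.01 and -0.04 over all genes. In the next interval 6 were lower and 1 higher in each sex, beside 13.4% and 16.0% of all genes lower. The medians there were -0.47 and -0.50. Over both intervals 11 were lower and 1 higher in females and 10 were lower in males, beside 18.9% and 24.3% of all genes lower. The largest falls called in both sexes from GD60 to GD90 were in CCNB1 and CDK1, which form the mitotic kinase, and in E2F1, a transcription factor of DNA replication. The mean level of CCNB1 was 34.0, 15.1 and 7.35 CPM at the 3 days, that of CDK1 was 19.9, 9.37 and 5.04 CPM, and that of E2F1 was 60.4, 29.1 and 15.5 CPM. CCNE1, a cyclin of the G1/S transition, rose from GD60 to GD90 by 0.59 (SE 0.20) in females and 0.61 (SE 0.20) in males.

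SGCE and PEG10 are neighbours that read away from each other on chromosome 9. SGCE encodes epsilon-sarcoglycan, a membrane protein of the dystrophin complex whose loss causes myoclonus dystonia in people, and PEG10 derives from a retrotransposon and is needed for the placenta. Both are expressed from the paternal copy. SGCE (ENSSSCG00000015328) lies at chr9:74402721-74473898 on the minus strand and PEG10 (ENSSSCG00000036049) at chr9:74474058-74486980 on the plus strand, with 159 bases between the annotated start sites. The sequence between them is shown because both members start from it, and it covers chr9:74473905-74474057 of Sscrofa11.1 (RefSeq genome, plus strand, without the bases that RefSeq assigns to SGCE). Capitals mark CG pairs, which read the same on both strands.
SGCE-PEG10 start region: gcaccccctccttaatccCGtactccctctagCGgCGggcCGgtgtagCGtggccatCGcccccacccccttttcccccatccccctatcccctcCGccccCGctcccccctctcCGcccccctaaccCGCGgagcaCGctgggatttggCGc

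This stretch of 153 bases held 13 CG pairs and was 71.9% G or C. In windows of 300 bases, from 250 before to 50 after the annotated start, SGCE had 20 CG pairs and PEG10 had 19, and 30.5% and 32.1% of all 30438 gene starts had at least as many. GRB10 had 57 (reached by 0.417% of gene starts), DLK1 50 (1.65%), CDKN1C 35 (10.1%), PLAGL1 33 (12.2%), MEST 25 (22.7%), the NNAT-locus gene 20 (30.5%) and PEG3 13 (41.5%), while the median gene start had 8. RefSeq starts MEST at chr18:18358655, PEG3 at chr6:61307788, PLAGL1 at chr1:21299830 and NNAT at chr17:40625990, each upstream of the window used here. The values of these genes therefore describe the annotated start only, and CG pairs at their RefSeq starts were not counted. No methylation was measured in these libraries.

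The levels of these neighbours were far apart. PEG10 was at 1072, 1179 and 1303 CPM in females at GD45, 632.0, 1070 and 1179 CPM at GD60, and 750.7, 796.5 and 929.9 CPM at GD90. In males it was at 741.0, 1259 and 1289 CPM, then 577.5, 782.1 and 1025 CPM, then 974.2, 1082 and 1087 CPM. SGCE was between 31.5 and 56.5 CPM in all libraries, with group means of 50.9, 39.3 and 44.0 CPM in females and 42.4, 39.2 and 35.8 CPM in males from GD45 to GD90. Across the 18 libraries the Pearson correlation of their log2 levels was 0.205, and it was 0.0371 after group means were taken out. These correlations are descriptions, and the libraries share differences in coverage.

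Neither gene was called between gestation days. The largest change of SGCE was from GD45 to GD60 in females (-0.37, SE 0.13, adjusted p = 0.107), where the groups did not overlap. That of PEG10 was from GD45 to GD90 in females (-0.52, SE 0.24, adjusted p = 0.0979). Without male GD45 replicate 17 the adjusted p of these changes was 0.0489 for SGCE (-0.38, SE 0.12) and 0.0465 for PEG10 (-0.52, SE 0.21). With the coverage index as a covariate, PEG10 was lower at GD60 than at GD45 in females (-0.57, SE 0.14, adjusted p = 0.0091) and males (-0.58, SE 0.13, adjusted p = 0.00734), and lower at GD90 than at GD45 (-0.63 and -0.60). All PEG10 transcript counts were assigned to 1 of its 2 annotated transcripts, with 1665 to 6991 per library and 0 to the other. The gene itself had 9021 to 23882 counts per library, so most of its reads were assigned to neither transcript. The 0 therefore does not show that the other transcript was absent.

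The dystrophin complex was followed in its other genes. Of 9 listed genes 7 were tested. From GD60 to GD90 there were 2 higher in females, 7 higher in males and none lower, with medians of 0.11 and 1.04. Over all genes tested 13.7% were higher in females and 18.5% in males, with medians of -0.02 and 0.01. The coverage index of the males was also higher at GD90 (0.454 to 0.544) than at GD60 (-0.106 to -0.0043). Its part in the counts of this list was not tested. SSPN (sarcospan) rose by 0.83 (SE 0.29) in females and 1.53 (SE 0.30) in males, and DTNA (alpha-dystrobrevin) by 0.82 (SE 0.19) and 1.11 (SE 0.19). In the earlier interval 1 was higher in females and none was called in males, beside 4.34% and 3.08% of all genes higher. From GD45 to GD90 there were 4 higher in each sex, beside 20.0% of all genes in females and 23.4% in males. SGCZ (zeta-sarcoglycan), which was counted among the relatives of the members, rose from GD45 to GD90 by 2.77 (SE 0.64) and 3.02 (SE 0.65) from a mean of 0.211 to 1.70 CPM.

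**Figure D2:**
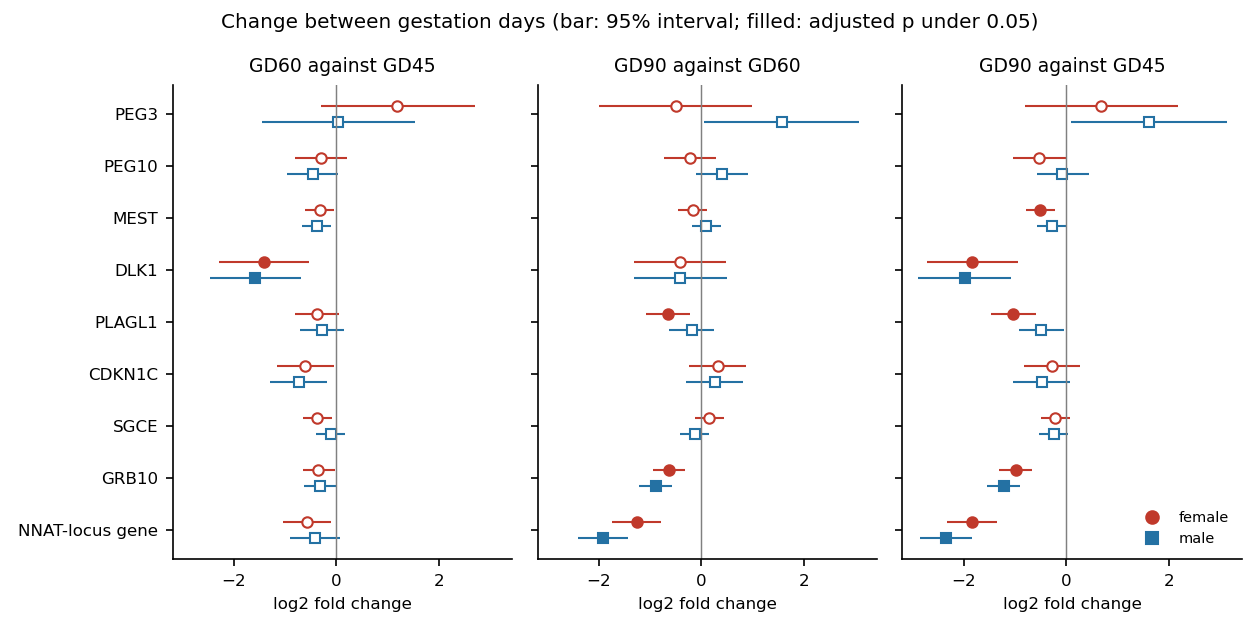
Log2 fold change between gestation days (x axis) for each gene (y axis) in females (circles) and males (squares), with bars for the 95% interval and filled symbols where the adjusted p was under 0.05. Filled symbols lie left of 0 in all panels, and the intervals of PEG3 are the widest, from -1.99 to 0.98 in females and 0.05 to 3.08 in males for GD90 against GD60.

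PEG3 encodes a large zinc finger protein that is expressed from the paternal copy and acts in growth and maternal behaviour in the mouse. The gene (ENSSSCG00000003326) is annotated at chr6:61285456-61292885 on the minus strand. RefSeq gives a longer gene on the same build, chr6:61281931-61307788, which extends beyond the annotated gene at both ends, by 14903 bases at its start. The ratio of the highest to the lowest library was larger for PEG3 than for any other member (27.3-fold). Its lowest library was male GD45 replicate 17. The coefficient of variation over 18 libraries was 80.1% for DLK1 and 66.4% for PEG3. Females had 17.7, 44.0 and 47.4 CPM at GD45, 22.7, 108.5 and 117.8 CPM at GD60, and 28.8, 40.9 and 106.3 CPM at GD90. Males had 5.36, 49.7 and 76.0 CPM, then 27.3, 39.8 and 68.3 CPM, then 124.3, 130.7 and 146.5 CPM. The 3 male libraries of GD90 were above all other libraries of both sexes, whereas the female groups overlapped at all days.

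PEG3 was called in no comparison of the fit to all libraries. Between GD45 and GD90 it changed by 1.61 (SE 0.72, adjusted p = 0.0741) in males and 0.69 (SE 0.71, adjusted p = 0.471) in females. This change was called with counts of both sexes summed by litter. In males it was also called by the likelihood ratio test, without a filter on low counts and without male GD45 replicate 14. The remaining alternatives in males did not call it, among them the fit without male GD45 replicate 17. The DESeq2 Wald test, only the groups compared and the coverage index as a covariate did not call PEG3 over this interval either. Its change from GD60 to GD90 was 1.57 (SE 0.72, adjusted p = 0.1) in males and -0.50 (SE 0.70, adjusted p = 0.639) in females. The male change was called (1.56) without male GD45 replicate 17 (adjusted p = 0.0266), with only the male libraries of these days (adjusted p = 0.000417) and without the 3 libraries with pituitary markers (adjusted p = 0.00622), and in the last fit the female change from GD45 to GD60 was 1.88 (SE 0.52, adjusted p = 0.023). These values moved with the coverage index of the library, which was 0.45 to 0.54 in the male GD90 libraries and at or below 0.47 in all others. Over 18 libraries, log2 CPM of PEG3 and the index had Pearson's r = 0.979 and Spearman's rho = 0.969, each with a permutation p of 1e-05 (two-sided, the smallest that 100000 permutations can give, 9e-05 after Benjamini-Hochberg adjustment over 9 genes). Without the 2 libraries farthest from the median index, r was 0.96, and within the 6 libraries of GD45, GD60 and GD90 it was 0.99, 0.928 and 0.997. Only 0.0245% of all genes tested had an r of at least this size in either direction. With the index as a covariate, the change from GD60 to GD90 was -0.09 (SE 0.22) in males and 0.02 (SE 0.19) in females.

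The coverage of PEG3 itself also differed between libraries. The share of its exon counts that lay upstream of the last annotated exon was 32% to 53.1% over the libraries, with medians of 37.5%, 49.1% and 35.1% in females and 46.6%, 39.9% and 52.6% in males at GD45, GD60 and GD90. The share was 52.6% (exact 95% binomial interval 50.4% to 54.7%, counting error only) in the library with the highest index. In male GD45 replicate 17, with only 58 exon counts, it was 46.6% (33.3% to 60.1%). RefSeq bases beyond the annotated ends were not counted for this gene.

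**Figure D3:**
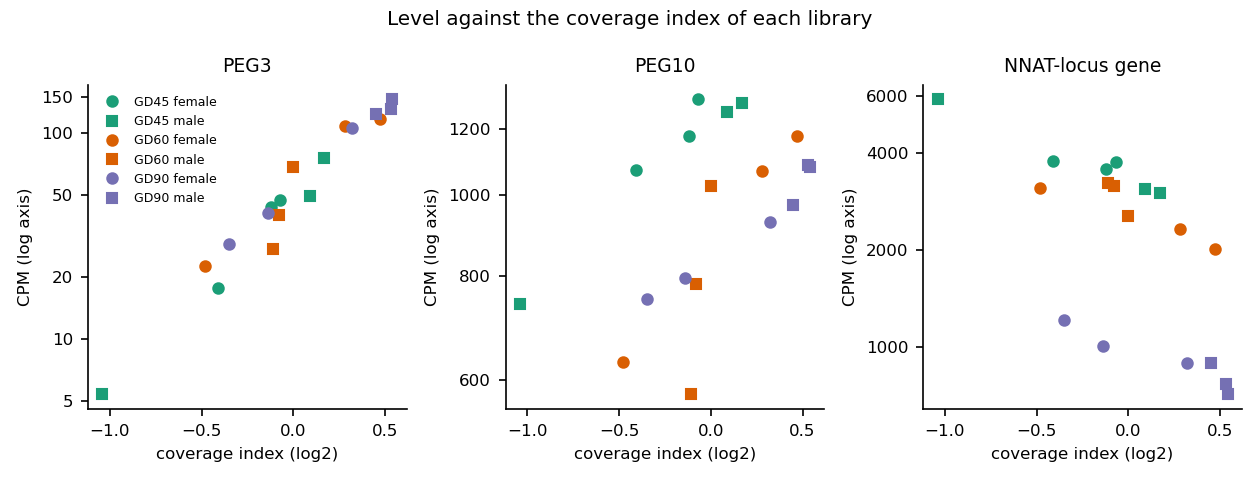
Level of PEG3, PEG10 and the NNAT-locus gene (y axis, CPM on a log axis) against the coverage index of each library (x axis, log2), coloured by gestation day, with circles for females and squares for males. PEG3 rises with the index over all days (r = 0.979), and the NNAT-locus gene falls with the index within each day at a lower level at GD90.

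For the other genes the relation with the index was weaker over all libraries. Adjusted over 9 genes, Pearson's r was -0.639 for DLK1 (permutation p = 0.0039, adjusted 0.0087), -0.681 for CDKN1C (p = 0.0027, adjusted 0.008), -0.61 for GRB10 (p = 0.0065, adjusted 0.012), -0.667 for the NNAT-locus gene (p = 0.002, adjusted 0.008), and 0.515 for PEG10 (p = 0.028, adjusted 0.042). Spearman's rho was -0.538, -0.552, -0.544, -0.715 and 0.494, with adjusted permutation p of 0.034, 0.034, 0.034, 0.0052 and 0.051. For SGCE, Pearson's r was -0.474 (adjusted permutation p = 0.061) and rho was -0.562 (adjusted permutation p = 0.034). Pearson's r was 0.0506 for MEST and -0.00112 for PLAGL1, with rho of 0.148 and -0.0774. These tests over all libraries do not take gestation day into account. After group means were taken out, r was 0.747 for MEST, 0.59 for PLAGL1, 0.861 for PEG10, -0.828 for CDKN1C, -0.651 for DLK1, -0.618 for GRB10, -0.205 for SGCE and -0.931 for the NNAT-locus gene, as a description. At GD45, GD60 and GD90 it was 0.819, 0.684 and 0.475 for MEST, 0.827, 0.322 and 0.522 for PLAGL1, 0.974, 0.832 and 0.976 for PEG10, and -0.901, -0.604 and -0.742 for CDKN1C. It was -0.817, -0.2 and -0.649 for DLK1, -0.844, -0.228 and -0.61 for GRB10, and 0.223, -0.45 and -0.893 for SGCE. Without the 2 farthest libraries, r was -0.416 for DLK1, -0.391 for CDKN1C, -0.371 for GRB10, -0.511 for the NNAT-locus gene, 0.462 for PEG10 and -0.635 for SGCE. An r of at least 0.515 in size was reached by 45.5% of all genes tested, so that relations of this strength were common in these libraries.

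Males and females were compared at each day because the study asked for sex differences. No member was called at any day, beside 0.0919% of all genes at GD45, 0.098% at GD60 and 0.098% at GD90. The count over all genes at GD90, 16 of 16325, was 1062 of 15427 with only the libraries of GD90 in the fit and 1544 of 16551 without the 3 libraries with pituitary markers, and no member was called in either fit. The intervals do not exclude sizeable differences. At GD90, males minus females was 1.19 for PEG3 (95% interval -0.31 to 2.69, adjusted p = 0.408) and 0.34 for PEG10 (-0.16 to 0.85). It was -0.30 for SGCE (-0.58 to -0.01, adjusted p = 0.356) and -0.39 for the NNAT-locus gene (-0.87 to 0.08). For these 4 genes the 3 males and 3 females did not overlap. The share of all genes without such overlap was not counted, so nothing is read from it. With the coverage index as a covariate, the differences of these 4 genes were -0.25 (SE 0.22), -0.08 (SE 0.15), -0.25 (SE 0.14) and 0.02 (SE 0.11). GRB10 differed by -0.11 (-0.43 to 0.21), MEST by 0.05 (-0.23 to 0.33) and CDKN1C by -0.13 (-0.69 to 0.42).

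The change between days was not shown to differ between the sexes for any member. In the interaction test 0.0% of all genes were called from GD45 to GD60 and 0.0% from GD60 to GD90, although 333 and 3232 genes had an unadjusted p under 0.05 in edgeR's quasi-likelihood test. By the DESeq2 Wald test 0 and 277 genes were called, and by edgeR's likelihood ratio test 0 and 129. The count over all genes from GD60 to GD90 depended on single libraries, since 2209 of 16631 genes were called without male GD45 replicate 17. With the coverage index as a covariate 4 of 16325 were called. The largest interactions among the members were those of PEG3 (2.07, SE 1.00, adjusted p = 0.258) and the NNAT-locus gene (-0.66, SE 0.32, adjusted p = 0.258) from GD60 to GD90. Without male GD45 replicate 17, the interaction of the NNAT-locus gene was -0.67 (SE 0.21, adjusted p = 0.0461). Without the 3 libraries with pituitary markers, the interactions of PEG3 (2.51, SE 0.61, adjusted p = 0.00967), PEG10 (0.84, SE 0.23, adjusted p = 0.0161) and the NNAT-locus gene (-0.85, SE 0.19, adjusted p = 0.00731) were called, and in that fit 4355 of 16551 genes were called for this interaction. With the coverage index as a covariate they were -0.11 (SE 0.30), 0.04 (SE 0.20) and -0.15 (SE 0.15).

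Litter size was examined over the 9 litters, with the counts of the female and the male summed and gestation day as a covariate. No member was called, and 0.0% of all 17003 genes tested were called by edgeR's quasi-likelihood test, although 2648 had an unadjusted p under 0.05. The DESeq2 Wald test called 51 genes and the likelihood ratio test 18. The log2 change per additional fetus was 0.0993 (95% interval 0.00786 to 0.191, adjusted p = 0.305) for PEG3, 0.0423 (0.0019 to 0.0827, adjusted p = 0.315) for PEG10, 0.0327 (0.00464 to 0.0608, adjusted p = 0.295) for PLAGL1 and -0.044 (-0.074 to -0.014, adjusted p = 0.292) for CDKN1C. The change was -0.0353 (-0.0649 to -0.00564, adjusted p = 0.292) for the NNAT-locus gene, -0.0316 (-0.0887 to 0.0256) for DLK1, -0.0139 (-0.0376 to 0.00981) for GRB10, 0.0054 (-0.0205 to 0.0313) for MEST and 0.00153 (-0.0258 to 0.0289) for SGCE. The mean coverage index was lowest in the litters of 8, at -0.578 at GD45 and -0.295 at GD60. With the index as a covariate, the change of PEG3 per fetus was 0.00 to 2 decimals (SE 0.03) and that of CDKN1C was -0.02 (SE 0.02). The labels also give the sex of the neighbouring fetuses. At GD45 and GD60, only in the litters of 8 did the male have females on both sides and the female males on both sides. Litter size and the sex of neighbours therefore cannot be told apart at these days.

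The litter of 8 at GD45 also had the smallest brains of that day, labelled 0.6653 in the female and 0.7135 in the male against a mean of 1.66 and 1.71 in the litters of 16 and 17. The labels give the unit as mg, which is doubtful for whole fetal brains. In this litter the female had 13.9 CPM of DLK1, 27.9 CPM of CDKN1C and 39.5 CPM of GRB10. The male, replicate 17, had 24.2, 45.6 and 60.4 CPM, above all other libraries of the series for each of these genes.

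**Figure D4:**
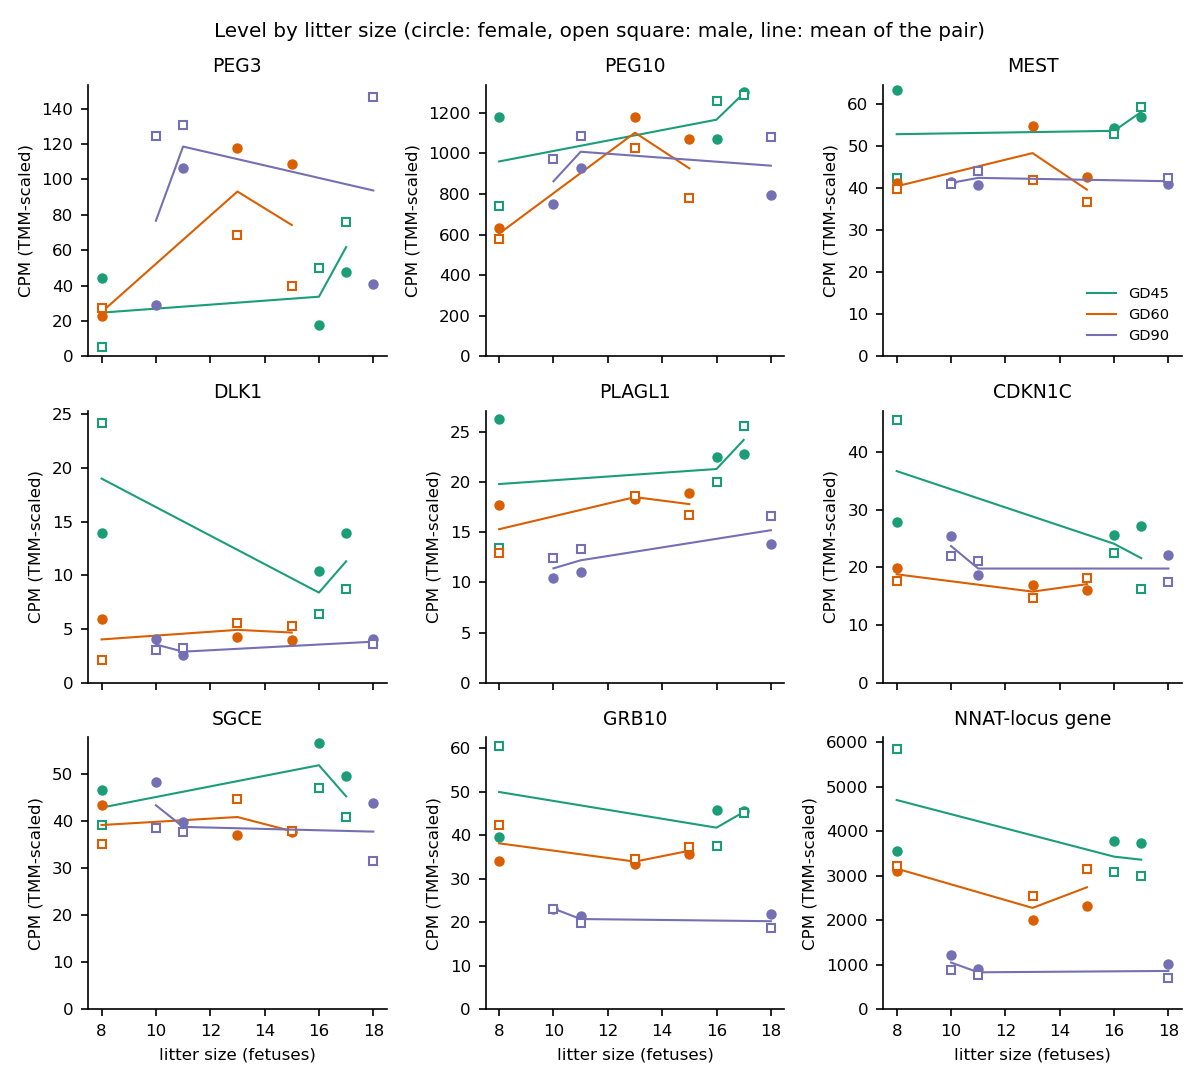
Level of each gene (y axis, TMM-scaled CPM) against litter size (x axis, fetuses), with filled circles for females, open squares for males and a line through the mean of the pair at each gestation day. The male of the GD45 litter of 8 lies apart from its female for DLK1 (24.2 against 13.9 CPM) and CDKN1C (45.6 against 27.9 CPM).

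Levels of different genes can be compared only per length. Per kilobase of annotated exon, the NNAT-locus gene had a median of 1814 CPM over 18 libraries (466.2 to 3846) and PEG10 157.0 (86.6 to 195.2), and these ranges overlapped no other. CDKN1C (13.2, from 9.48 to 29.4), SGCE (11.6, from 9.04 to 16.2) and PEG3 (11.4, from 1.26 to 34.4) followed with overlapping ranges. GRB10 (6.72, from 3.57 to 11.6), MEST (6.37, from 5.52 to 9.49) and PLAGL1 (5.20, from 3.14 to 7.96) overlapped with each other, and DLK1 was lowest at 1.08 (0.479 to 5.48).

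The genes whose log2 levels followed each member most closely over the 18 libraries are given as a description, and these libraries share day, sex and coverage. They were MAP2, MAP1B and PCDH19 for PEG3 (r of 0.992, 0.988 and 0.986), and DDAH2, DPYSL4 and SHB for GRB10 (0.986, 0.984 and 0.983). For the NNAT-locus gene they were PCGF2, H3-3A and FAM110A (0.993, 0.99 and 0.989). For DLK1 they were DIRAS3, NUP37 and NFATC4 (0.94, 0.918 and 0.915), and DIRAS3 is itself imprinted in people. For PLAGL1 they were BMT2, SKIDA1 and ZNF280C (0.947, 0.945 and 0.943), for MEST DDX18, DCAF12 and E2F5 (0.916, 0.899 and 0.896), and for CDKN1C PCBP3, MPV17L2 and HSDL2 (0.907, 0.894 and 0.89). For PEG10 they were MSANTD3-TMEFF1, GOLIM4 and CLINT1 (0.949, 0.931 and 0.929), and for SGCE MLLT11, VBP1 and SMS (0.902, 0.901 and 0.9). Among the members themselves, the closest pair over the 18 libraries was GRB10 and the NNAT-locus gene (r = 0.977). After group means were taken out, r of this pair was 0.778. It was then 0.91 for PEG3 and PEG10, 0.9 for CDKN1C and the NNAT-locus gene, and -0.926 for PEG3 and the NNAT-locus gene.

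Genes that lie beside the members were counted as well, since imprinted genes are found in clusters. Of 43 listed neighbours 26 were tested. In the first interval none was called in females and 1 was lower in males. Over all genes 4.34% were higher and 2.88% lower in females, and 3.08% and 2.53% in males. In the second interval 4 neighbours were higher and 1 lower in females, and 7 were higher and 4 lower in males. Their median log2 changes were 0.26 and 0.37, beside -0.02 and 0.01 over all genes. Beside the shares over all genes (13.7% higher and 13.4% lower in females, 18.5% higher and 16.0% lower in males), the 4 of 26 higher in females and the 4 of 26 lower in males are near the background. Over both, 5 were higher and 3 lower in females and 6 were higher and 4 lower in males. Over all genes 20.0% were higher and 18.9% lower in females, and 23.4% and 24.3% in males.

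Beside DLK1, BEGAIN, which encodes a protein of the postsynapse, rose from GD60 to GD90 by 1.89 (SE 0.18) in females and 1.25 (SE 0.18) in males. At the other side of the same cluster DIO3, the enzyme that inactivates thyroid hormone, fell by 1.44 (SE 0.41) in females and 1.29 (SE 0.42) in males, from a mean of 1.61 to 0.618 CPM. Near SGCE and PEG10, the calcitonin receptor gene CALCR rose by 1.51 (SE 0.25) in females and 1.85 (SE 0.26) in males, and PON2, a paraoxonase, by 0.85 (SE 0.13) and 0.57 (SE 0.13). PPP1R9A, a neuronal actin-binding protein, changed by 2.24 (SE 0.70) in males and -0.61 (SE 0.67, not called) in females, and ASB4 was called in males (3.62, SE 1.06) at a mean of 0.552 CPM at GD90.

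Beside MEST, the coatomer gene COPG2 rose in males by 1.02 (SE 0.36, adjusted p = 0.0366) and had a value of -0.01 (SE 0.36) in females. Near PLAGL1, PHACTR2 rose in males by 1.47 (SE 0.26), with 0.40 (SE 0.26, not called) in females, and LTV1 fell by 0.40 (SE 0.12) in males, with -0.32 (SE 0.12, adjusted p = 0.058) in females. Near CDKN1C, NAP1L4, a histone chaperone, fell in males by 0.55 (SE 0.15), with -0.15 (SE 0.15) in females, and CD81, a tetraspanin, rose in females by 1.02 (SE 0.17), with 0.23 (SE 0.17) in males. Near the NNAT-locus gene, CTNNBL1, a splicing protein, fell in males by 0.84 (SE 0.21) with -0.56 (SE 0.21, adjusted p = 0.0599) in females. The sex differences of these neighbours were not singled out for a test of their own. In males the coverage index was higher at GD90 (0.454 to 0.544) than at GD60 (-0.106 to -0.0043), while the female groups overlapped. Its part in the changes of the neighbours was not tested.

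Among other imprinted genes, 45 were listed, 33 were in the table and 31 were tested. In the second interval 5 were higher and 2 lower in females and 9 were higher and 1 lower in males. The median log2 changes were 0.13 and 0.28, beside -0.02 and 0.01 over all genes. The female count of higher genes is near the 13.7% over all genes, and in males 18.5% of all genes were higher. In the second interval 13.4% and 16.0% of all genes were lower in females and males. In the first, 1 was higher and 1 lower in females and 1 higher and 2 lower in males. Over all genes 4.34% were higher and 2.88% lower in females, and 3.08% and 2.53% in males. Over both intervals 9 genes of the list were higher in each sex, 2 were lower in females and 3 in males. Over both, 20.0% of all genes were higher and 18.9% lower in females, and 23.4% and 24.3% in males. With 31 genes tested, nothing further is read from the counts of this list. Among genes called in both sexes, the largest rises from GD60 to GD90 by the sum of the female and male log2 changes were in RASGRF1, an activator of RAS in neurons (1.64, SE 0.28, and 2.13, SE 0.29), CALCR, and INPP5F, a phosphoinositide phosphatase (0.94, SE 0.20, and 1.20, SE 0.20). DIO3 was the gene of this list that fell in both sexes over that interval. DIRAS3 fell in both sexes from GD45 to GD60, by 0.68 (SE 0.17, adjusted p = 0.0225) in females and 0.83 (SE 0.17, adjusted p = 0.00792) in males, and it is named here after its values were seen. CALCR and DIO3 stood both in this list and in that of the neighbours. So did ASB4, PPP1R9A, COPG2, RTL1, PHLDA2, KCNQ1, ASCL2, TFPI2 and DDC, and the counts of the lists are therefore not separate. Of the 12 listed relatives of the members, 9 were tested, and from GD60 to GD90 there was 1 higher and 1 lower in each sex. In the first interval there was 1 lower in males, and from GD45 to GD90 there were 3 higher in females, 2 higher in males and 1 lower in each sex. The shares over all genes are those given above for these intervals, and with 9 genes nothing further is read from the counts.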

How the data were processed

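RNA was enriched with oligo(dT) beads from total RNA of each brain and sequenced as paired ends. Per the labels and the study's methods, the authors used FastQC, Trimmomatic, HISAT2 and featureCounts with Sscrofa11.1. They deposited raw counts per gene, exon and transcript. Strand and multi-mapping options are not given in the sources used here. All 22 columns of the gene table were mapped to 18 libraries, and the 2 runs of 4 libraries were summed. The deposited gene lengths (unit: bases, under other) were used for levels per kilobase.

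The gene counts were fitted with edgeR 4.0.16 in R 4.3.3 (filterByExpr, TMM, glmQLFit, 6 group means over 18 libraries). Litter size was fitted to sums of 9 litters. The study's own test was described as paired, and litter as a block is an alternative here. Fits were tested on simulated data. Alternatives were DESeq2 1.42.0, the likelihood ratio test, no TMM, no filter, left-out libraries, only the groups compared, sums by litter and added covariates. Correlations used log2 CPM with a prior count of 2 and scipy 1.17.1. Sequence was read from the RefSeq genome of the same build, where 99.8% of 14397 shared symbols overlapped in position. No protein sequences were used.

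Depth was 15118843 to 19729783 counts per library, and replicates are separate fetuses. Members and lists were chosen with earlier results of these data known. Named were all members, called neighbours and relatives, for other lists the 3 called genes with the largest rise and fall from GD60 to GD90 in both sexes, and the 3 genes most like each member.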

Additional observations from a re-analysis of the deposited data

Results flagged for a closer look

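Among the 6 libraries of each gestation day, 4 values lay farther from the rest than Dixon's 95% limit for the gap as a share of the range, out of 27 sets of 6 libraries, and chance flags about 1 in 20 such sets. GRB10 was 60.4 CPM in male GD45 replicate 17 against 45.8 CPM in the next library (gap 0.639 of the range). The NNAT-locus gene ENSSSCG00000007336 was 5861 CPM in the same library against 3777 CPM in the next (0.726). MEST was 54.8 CPM in female GD60 replicate 3 against 42.6 CPM in the next (0.678). PLAGL1 was 12.9 CPM in male GD60 replicate 16 against 16.7 CPM in the next (0.637). Male GD45 replicate 17 had the lowest coverage index (-1.04), a pituitary marker sum of 12.4 CPM and an erythroid marker sum of 789.3 CPM against at most 362.3 CPM in the other GD45 libraries, and the part of these in its values was not tested.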

How the results depend on the processing

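The 15 calls made for the members and the NNAT-locus gene kept their direction under every alternative run. Of 93 pairs of gene and comparison that were not called, 42 changed sign under at least 1 alternative. The number of the 8 named members called was 1 from GD45 to GD60 in each sex, 2 and 1 from GD60 to GD90 in females and males, and 4 and 2 from GD45 to GD90. With single libraries left out it ranged from 0 to 4 and from 0 to 2 for GD60 against GD45 in females and males, from 1 to 2 for GD90 against GD60 in each sex, from 4 to 5 for GD90 against GD45 in females and from 2 to 4 in males. With only the groups compared, GD60 against GD45 gave 2 in females and 0 in males, and GD90 against GD60 gave 2 in males. With sums by litter it gave 3 for GD60 against GD45 in each sex, 2 for GD90 against GD60 in males and 5 for GD90 against GD45 in males. With the coverage index as a covariate, chosen after the data were seen, the counts were 3, 3, 2 and 5 for the same comparisons. Without the 3 libraries with pituitary markers, also chosen after the data were seen, they were 4, 2, 3 and 4, and the interaction from GD60 to GD90 was called for 2 members, PEG3 and PEG10. By the DESeq2 Wald test, GD60 against GD45 in males gave 2. The change of PEG3 from GD60 to GD90 in females reversed to 0.59 with sums by litter and to 0.02 with the index, and in males to -0.09 with the index. With litter as a replicate block, 0 members were called between the sexes, as without it. Other causes were not tested. DLK1, with 33 to 311 counts per library, has the lowest depth.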
